A study of Homo sapiens with 4 samples.

Results

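Focal adhesions are the sites where integrin receptors in the cell membrane are tied to the extracellular matrix outside and to actin filaments inside. The 10 genes described here encode scaffolds and linkers of these sites: NEDD9, BCAR1, PTK2, PXN, VCL, TLN1, ZYX, ILK, PARVA and LIMS1. They were taken by name, with all probe sets (groups of short probes that read a transcript) whose platform annotation gives that gene symbol alone, which were 31 of the 54675 probe sets of the array. All 10 were among the 19775 genes read by such a probe set.

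Total RNA came from LSTGFBR2, a human colon cancer epithelial line carrying the type II TGF-β receptor (TGFBR2) as a doxycycline-inducible construct of the T-REx system. Doxycycline was given from seeding, at a dose listed as 1 µg/ml in the treatment protocol and as 1 µM in the growth protocol. Human recombinant TGF-β1 at 5 ng/ml followed 16 hours later, for 16 hours. There were 2 untreated arrays (treatment given as none) and 2 TGF-β1 arrays, and the labels do not state which of them received doxycycline or whether the line is a single clone. Expression was read on HG-U133 Plus 2.0 arrays as RMA values on the log2 scale, so a difference of 1 is a 2-fold change. Nothing says that replicates were separate cultures. The p-values weigh the group difference against the spread of arrays within a group, estimated in part from all genes together. That spread may be technical variation only. In bulk RNA of this kind, more transcript per cell and more cells holding the transcript cannot be told apart.

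The construct's gene differed between the groups by 1 of its probe sets. That TGFBR2 probe set read 9.44 and 9.55 untreated against 14.70 and 14.92 with TGF-β1, 39.9-fold higher, while the other read 10.47 and 10.81 against 10.58 and 10.76. The gene contrast below therefore goes with that TGFBR2 difference as well as with the cytokine, and the contributions cannot be told apart. Of 14 colon epithelial marker genes, 13 read above the median gene on all 4 arrays, and their summed linear level was 90360 to 99593 units in untreated and 96031 to 107907 in TGF-β1 arrays. The same held for 1 of 10 fibroblast, 0 of 8 endothelial and 0 of 8 measured leukocyte markers. Their sums ran from 1415 to 1773, 672 to 707 and 550.3 to 568 units in untreated arrays, and from 1291 to 1385, 662 to 691 and 532 to 571 units in TGF-β1 arrays. No gene of these 3 lists passed the test, and in the epithelial list 1 rose and 1 fell.

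As background, integrins have no enzyme activity of their own, and ligand binding is passed on by the proteins that gather at their tails. Talin (TLN1) binds the tail and activates the receptor, vinculin (VCL) strengthens the link of talin to actin, and focal adhesion kinase (PTK2) docks there and phosphorylates CAS scaffolds with SRC. NEDD9 (also HEF1 or CAS-L) and BCAR1 (p130Cas) are relatives of this CAS family, whose phosphorylated tyrosines recruit CRK adaptors and drive migration. Paxillin (PXN) is the adaptor that brings kinases and GTPase regulators to the site. ILK, PARVA (α-parvin) and LIMS1 (PINCH-1) form a complex of their own, and zyxin (ZYX) marks adhesions under tension and brings in actin assembly factors.

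The CAS relatives are shown first by the sequence before their annotated starts. RefSeq promoter windows (GRCh38.p14, 250 bases before and 50 after a start) were found for 8 of the 10 genes, 18 windows in all, of which 3 belong to NEDD9 and 5 to BCAR1. NEDD9 starts 1 and 2 lie 38 bases apart and start 3 lies 149680 bases further along the gene. The 250 bases before NEDD9 starts 1 and 3 (minus strand, chr6:11382349-11382598 and chr6:11232669-11232918) and before BCAR1 start 1 (minus strand, chr16:75268008-75268257) read as follows, 5′ to 3′, with matches to the motifs below in capitals.
NEDD9 start 1: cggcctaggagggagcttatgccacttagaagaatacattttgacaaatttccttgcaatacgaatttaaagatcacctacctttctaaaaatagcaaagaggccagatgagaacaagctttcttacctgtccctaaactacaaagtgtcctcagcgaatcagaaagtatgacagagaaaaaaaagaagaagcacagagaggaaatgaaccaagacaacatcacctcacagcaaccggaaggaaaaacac
NEDD9 start 3: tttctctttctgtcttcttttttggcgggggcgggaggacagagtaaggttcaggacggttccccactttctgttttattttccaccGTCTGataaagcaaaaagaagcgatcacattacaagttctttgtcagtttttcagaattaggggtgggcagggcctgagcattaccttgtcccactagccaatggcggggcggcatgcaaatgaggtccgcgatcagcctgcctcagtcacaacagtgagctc
BCAR1 start 1: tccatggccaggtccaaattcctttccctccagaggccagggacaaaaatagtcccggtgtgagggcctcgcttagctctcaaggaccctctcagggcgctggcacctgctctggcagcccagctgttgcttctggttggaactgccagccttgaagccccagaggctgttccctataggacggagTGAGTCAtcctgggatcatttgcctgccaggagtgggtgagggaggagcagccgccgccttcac

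Motifs were searched on both strands of the 300-base windows and do not overlap each other in the sequences shown. The SMAD core CAGAC is present in 45.3% of all 35116 RefSeq windows and in 10 of the 18 windows of these genes. NEDD9 has it once, on the opposite strand, beginning 163 bases before start 3, and has none of the other motifs in its 3 windows. BCAR1 start 1 has the AP-1 motif TGANTCA beginning 64 bases before the start, a motif in 7.71% of all windows, and a CAGAC that runs across the start and is not in the stretch shown. Over its 5 windows BCAR1 has 5 matches to CAGAC, in starts 1, 3 and 5. The AP-1 motif also matched LIMS1 start 2. The TEAD motif GGAATG, in 14.0% of all windows, matched a VCL window and the window of PXN start 2. The SMAD palindrome GTCTAGAC (0.202% of all windows) and the CArG box bound by SRF (1.29%) matched 0 of the 18. These matches describe the letters in the windows and do not show binding. Which starts these cells use, and whether the matches bear on expression, was not tested.

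NEDD9 was the member that changed most. Its brightest probe set gave 8.90 and 8.79 untreated against 11.84 and 11.58 with TGF-β1. Both TGF-β1 readings lay far above both untreated ones, and the gap between groups was many times the gaps within them. The means were 8.84 ± 0.075 and 11.71 ± 0.19 (SD, n = 2), a log2 fold change of 2.86 ± 0.13 (SE), or 7.28-fold higher (limma, Benjamini-Hochberg adjusted p = 0.00121 over all genes). This was the 12th highest fold change of the 19775 genes, and the gene was still called whichever array was dropped (limma adjusted p from 0.0149 to 0.0225).

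The 5 probe sets of NEDD9 did not read alike. The second brightest read 8.32 and 8.43 untreated against 10.73 and 10.64 with TGF-β1, 4.95-fold higher. The third read 7.20 and 7.07 against 8.68 and 9.07, 3.34-fold higher. These 3 were called over all probe sets (limma adjusted p = 0.00376, 0.00405 and 0.0162 from the brightest down). In the 4 fits over probe sets with 1 array left out, which keep 1 residual degree of freedom, the brightest passed in 2, the second in 1 and the third in 0. The other two, both dimmer, lay below the median of all probe sets on every array. The fourth read 5.56 and 5.75 against 5.57 and 5.69 and the dimmest 5.27 and 5.39 against 5.43 and 5.29, so their groups overlapped. Their log2 fold changes were -0.03 (95% interval -0.32 to 0.27) and 0.03 (-0.25 to 0.31). RMA gives no detection call, so whether these 2 probe sets read the transcript at all is not known here. The mean of all 5 gave a log2 fold change of 1.38 for NEDD9.

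**Figure D1:**
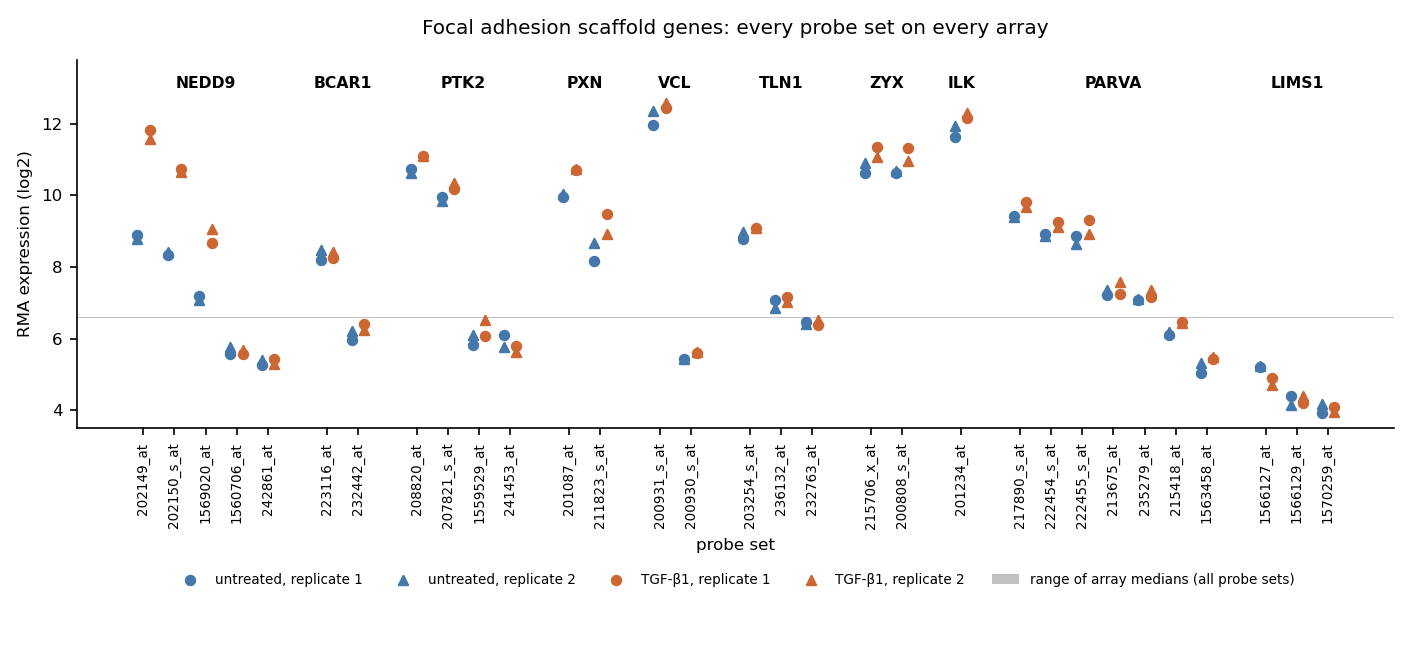
RMA expression (log2) of each of the 31 probe sets of the 10 genes on every array, with untreated arrays in blue, TGF-β1 arrays in orange, circles for replicate 1, triangles for replicate 2 and a grey band for the array medians (6.57 to 6.61). The left 3 NEDD9 probe sets stand 1.74 to 2.86 higher in TGF-β1 arrays, and 12 probe sets lie below the median on all 4 arrays.

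BCAR1, the nearest functional relative of NEDD9 among the members, showed no such change. Its brighter probe set gave 8.18 and 8.47 untreated against 8.24 and 8.43 with TGF-β1, so the TGF-β1 readings fell between the untreated ones. The log2 fold change was 0.0089 with a 95% interval from -0.32 to 0.34 (limma adjusted p = 0.996), so a change within that interval is not excluded. The interval is not the limit of what could be called, since changes of 0.42 in PTK2 and 0.46 in ILK were not called either. The second probe set lay below the array medians and read 5.95 and 6.20 against 6.40 and 6.23 (log2 fold change 0.24 ± 0.13 SE, not called). The remaining CAS relatives were also not called. EFS had a log2 fold change of -0.04 and CASS4 of 0.0021, both from levels under the array medians.

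Against BCAR1, NEDD9 rose by 2.86 on the log2 scale, which is 7.24-fold, and the difference NEDD9 minus BCAR1 was higher in 2 of 2 TGF-β1 arrays than in either untreated array. A limma fit over the differences NEDD9 minus each other gene called 19765 of 19774 of them, 100% after rounding, so a call there says nothing particular about BCAR1. In that fit the differences share the NEDD9 values and their spread was pooled to 39548 degrees of freedom from 4 arrays, so its p-values are not used. The spread was then taken instead from 9882 pairs of other genes that share no values, of which 5.07% were called. This gave a standard error of 0.22 and a 95% interval of 2.35 to 3.36 (limma adjusted p = 0.000872). NEDD9 was included with its rise known, and the pairs were not chosen for a rise. The interval thus describes the size of the gap, and the p-value does not show that the gap is unusual. By the mean of all probe sets of each gene, the difference was 1.26. With 2 arrays a group, the smallest two-sided p an exact permutation test allows is 0.333.

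NEDD9 also changed more than 7 of the other members, with the smallest gap against PXN. NEDD9 changed by 2.14 more than PXN (95% interval 1.73 to 2.55) and by 2.41 to 2.65 more than PTK2, VCL, TLN1, ZYX, ILK and PARVA. By the mean of all probe sets these gaps were smaller, at 0.63 against PXN and 0.92 (ZYX) to 1.26 (TLN1) against the others. In the fit with unshared pairs the limma adjusted p against these 7 genes ran from 0.000435 to 0.00174. These differences share the NEDD9 readings, whose rise was known beforehand, so the p-values do not show that the gaps are unusual. No gap is given against LIMS1, because its own probe sets were dim and the bright ones it shares with its copies cannot be given to it alone.

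**Figure D2:**
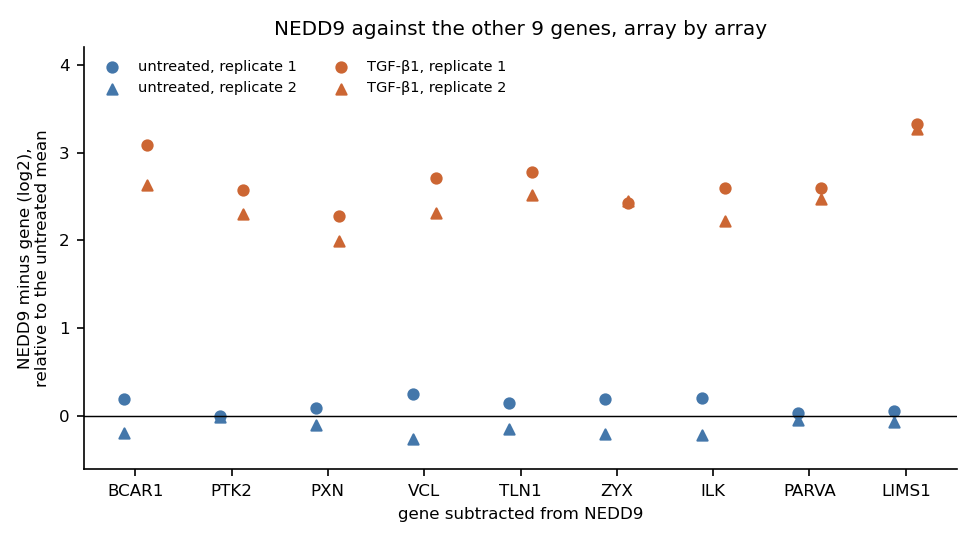
Difference NEDD9 minus each of the other 9 genes (log2) on each array, set to 0 at the untreated mean, with untreated arrays in blue and TGF-β1 arrays in orange. The TGF-β1 arrays lie on average 2.14 (PXN) to 2.86 (BCAR1) above the untreated mean and further for LIMS1, whose probe set was below the array medians. The groups do not overlap for any of the 9.

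Counted as genes, 2 of the 10 rose, NEDD9 and PXN, and 0 fell, against 1.87% of all genes that rose and 1.47% that fell. A fit limited to mean log2 values of at least 7 kept 9 of the 10. It called the same 2, and 910 of 11342 genes, 467 of them higher. NEDD9 was included with its rise known, so the reading that bears on the rest is 1 of the other 9. Counted as probe sets, 4 of 31 rose against 0.65% of all probe sets, 3 of them NEDD9's. The median log2 fold change of the other 9 genes was 0.35, against -0.0036 over all genes. Values lay above 0 for 8 of the 9, with BCAR1 at 0.0089, and LIMS1 was at -0.43. In 7 of the 9 both TGF-β1 arrays read above both untreated arrays, which was so for 21.4% of all genes. Over their 26 probe sets the figure was 17, against 19.2% of all probe sets. Centring the arrays on their medians or on 8 housekeeping genes left the median at 0.36 and 0.38.

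**Figure D3:**
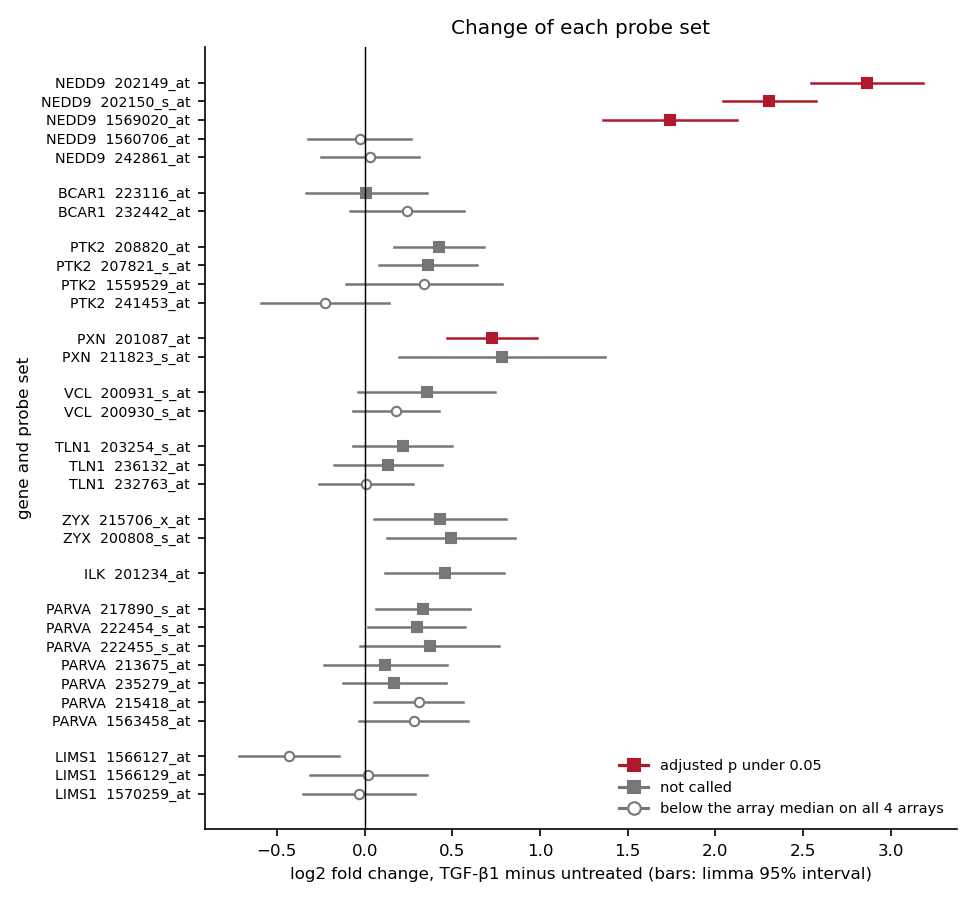
Log2 fold change (TGF-β1 minus untreated) of each probe set with limma's 95% interval, red where the adjusted p was under 0.05, grey where it was not, and open circles for probe sets below the array median on all 4 arrays. The 3 NEDD9 probe sets and 1 of PXN are red, and 27 of the 31 points lie above 0.

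PXN, the adaptor paxillin, rose moderately. The brighter probe set read 9.95 and 10.04 untreated and 10.71 and 10.73 with TGF-β1. The groups were well apart and the readings within each were close. The log2 fold change was 0.72 ± 0.099 (SE), 1.65-fold (limma adjusted p = 0.0222 over genes and 0.0488 over probe sets). The dimmer one read 8.16 and 8.67 against 9.48 and 8.92, a similar change of 0.78 with a wider spread (± 0.24 SE, limma adjusted p = 0.234). The PXN call was lost when any 1 array was dropped (limma adjusted p from 0.0999 to 0.157), and also with the mean of its probe sets (0.0508).

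PTK2, which encodes focal adhesion kinase, read 10.73 and 10.63 untreated and 11.10 and 11.10 with TGF-β1 by its brightest probe set. The groups did not overlap, but the change of 0.42 ± 0.0995 (SE) was not called (limma adjusted p = 0.0867). The second brightest gave a like value, 9.95 and 9.84 against 10.18 and 10.33. Its other two probe sets lay below the array medians and gave 0.34 and -0.23 with overlapping groups.

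Of the integrin to actin links, talin and vinculin gave differences whose 95% intervals included 0. VCL by its brighter probe set read 11.96 and 12.36 untreated and 12.45 and 12.58 with TGF-β1, a difference of 0.35 with a 95% interval from -0.02 to 0.73. The gap between its untreated arrays was wider than the difference between groups. The other VCL probe set lay below the array medians and gave 0.18. TLN1 by its brightest probe set read 8.78 and 8.97 against 9.09 and 9.09, a difference of 0.22 (-0.05 to 0.48), and its other two probe sets gave 0.13 and 0.0093 with overlapping groups. Neither gene was called (limma adjusted p = 0.332 for VCL and 0.414 for TLN1).

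ZYX, the gene of zyxin, had similar readings from its 2 probe sets. The brighter read 10.63 and 10.92 untreated and 11.34 and 11.06 with TGF-β1, and the other read 10.61 and 10.67 against 11.32 and 10.95. In both, TGF-β1 replicate 1 stood highest, and the changes of 0.43 and 0.49 were not called (limma adjusted p = 0.218 by the first, over genes, and 0.228 by the second, over probe sets).

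In the ILK, PINCH and parvin complex, ILK read 11.62 and 11.93 untreated and 12.17 and 12.29 with TGF-β1 by its only probe set. The difference was 0.46 (95% interval 0.13 to 0.78) and did not pass after adjustment (limma adjusted p = 0.150). PARVA by its brightest probe set read 9.43 and 9.40 against 9.82 and 9.68, a difference of 0.33 (limma adjusted p = 0.174). All 7 PARVA probe sets gave values above 0, from 0.12 to 0.37. In 6 of them both TGF-β1 arrays read above both untreated arrays, which was so for 19.2% of all probe sets. By limma 0 were called after adjustment, against 3 at an unadjusted p under 0.05, which 13.2% of all probe sets passed. The 7 probe sets read the same RNA samples and are not independent evidence.

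LIMS1 could not be read well by probe sets of its own. Its 3 probe sets lay below the array medians throughout, at 3.92 to 5.23. The brightest read 5.21 and 5.23 untreated and 4.89 and 4.69 with TGF-β1, a difference of -0.43 that was not called (limma adjusted p = 0.110), and the other two gave 0.02 and -0.03. A further 2 probe sets are annotated to LIMS1 together with its near-identical copies LIMS3 or LIMS4 and cannot be given to any of them. They were bright. The one annotated to LIMS1 and LIMS4 read 10.57 and 10.83 against 10.94 and 10.49, and the one shared by LIMS1, LIMS3 and LIMS4 read 11.13 and 11.14 against 11.35 and 11.48, neither called over all probe sets. The direction of LIMS1 was thus not settled, since its own probe sets were dim and the bright ones cannot be given to it alone.

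The genes whose 4 array values, each centred on its own mean, lay closest to those of NEDD9 were AHNAK2 at a Euclidean distance of 0.30 (log2), SKIL at 0.31, ITGA2 at 0.50, STON2 at 0.68 and NHS at 0.72. SKIL encodes a SMAD corepressor and ITGA2 the integrin α2 chain, a receptor for collagen. All 5 had groups that did not overlap and were 4.74-fold to 8.29-fold higher with TGF-β1. With 4 arrays in 2 groups, this measure reads little more than the size of the change. Among the members PXN came nearest at 2.15.

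The wider adhesion machinery was read through 77 measured genes of 8 lists, in which 9 rose, 1 fell and 67 were not called, with a median log2 fold change of 0.19. That is 11.7% higher and 1.30% lower, beside 1.87% and 1.47% of all genes. The lists were chosen with earlier results of these data known. These shares therefore do not show that adhesion genes changed more often than others. In the 4 fits with 1 array dropped, fewer of the 77 were called, and fewer of all genes too. ITGA2 and ITGB5 were called in all 4 of those fits, FERMT1 in all but the fit without untreated replicate 1 (limma adjusted p = 0.0535), and each of the other 7 genes in 0. For TGFB1I1, KANK2, TNS1, CAV1, ITGB4 and ITGAV the probe set used was called over genes but not over all probe sets (limma adjusted p from 0.0567 to 0.0820).

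Among 11 integrin receptor genes, 4 rose and 0 fell, with a median of 0.49. ITGA2 read 9.32 and 9.66 untreated and 12.44 and 12.64 with TGF-β1, 8.29-fold higher (limma adjusted p = 0.00129), and its dimmer probe set was 4.61-fold higher. ITGB5, the β5 chain that pairs with αv, was 3.92-fold higher by its brightest probe set and 2.08-fold to 3.21-fold by its other 3, of which 1 was not called. ITGB4, the β4 chain of hemidesmosomes, and ITGAV, the αv chain, were 2.01-fold and 1.57-fold higher. As for NEDD9, the probe sets of ITGB4 differed: of its 5, 3 gave 1.01 to 1.03 and the other two 0.10 and -0.07. ITGA2 changed by 3.05 on the log2 scale and NEDD9 by 2.86. Their difference was among those of the fit whose p-values are not used.

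Of 9 genes of talin relatives, kindlins and integrin activators, 2 rose. FERMT1, kindlin-1, which activates integrins together with talin, read 11.36 and 11.33 against 12.71 and 12.59, 2.47-fold higher (limma adjusted p = 0.00455). A second FERMT1 probe set gave a log2 fold change of 1.30, and a further 2, not called, gave 0.83 and 0.03. KANK2, which binds talin at the rim of adhesions, was 1.56-fold higher by its brightest probe set (limma adjusted p = 0.0442), while its other two probe sets gave -0.0062 and 0.03.

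Of 7 paxillin relatives and partners, 1 rose. TGFB1I1, or Hic-5, a paxillin relative, read 6.89 and 6.96 against 7.58 and 7.46, 1.51-fold higher (limma adjusted p = 0.0420). The relative LPXN, leupaxin, gave 0.39 and was not called.

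Of 7 tensins and other adaptors, 2 rose and 1 fell. TNS3 and TNS1, tensins that bind integrin tails and actin, were 2.07-fold and 2.04-fold higher, though the other 4 TNS1 probe sets gave 0.04 to 0.39 and the other TNS3 probe set 0.05, none of them called. CAV1, the coat protein of caveolae, read 6.96 and 7.23 against 6.30 and 6.38, 1.69-fold lower (limma adjusted p = 0.0362), and its TGF-β1 readings lay under the array medians. Its second probe set gave -0.39 and was not called.

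In the remaining lists limma called 0 genes after adjustment. At an unadjusted p under 0.05 the counts were 8 of 24 CAS and FAK signalling partners, 5 of 12 zyxin relatives and actin linkers, and 0 of both the other CAS genes and the 5 relatives of the ILK complex, beside 16.7% of all genes. Of the 24 CAS and FAK signalling partners, the largest values were 0.54 for PTPN12, a phosphatase that acts on p130Cas (limma adjusted p = 0.0688), and -0.49 for the SRC-family kinase gene FYN. Of 12 zyxin relatives and actin linkers, FBLIM1 and TES gave 0.60 and 0.54 (limma adjusted p = 0.0623 and 0.0595), with groups that did not overlap. Of 5 relatives of the ILK, PINCH and parvin complex, LIMS2 and PARVG gave 0.32 and 0.24.

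**Figure D4:**
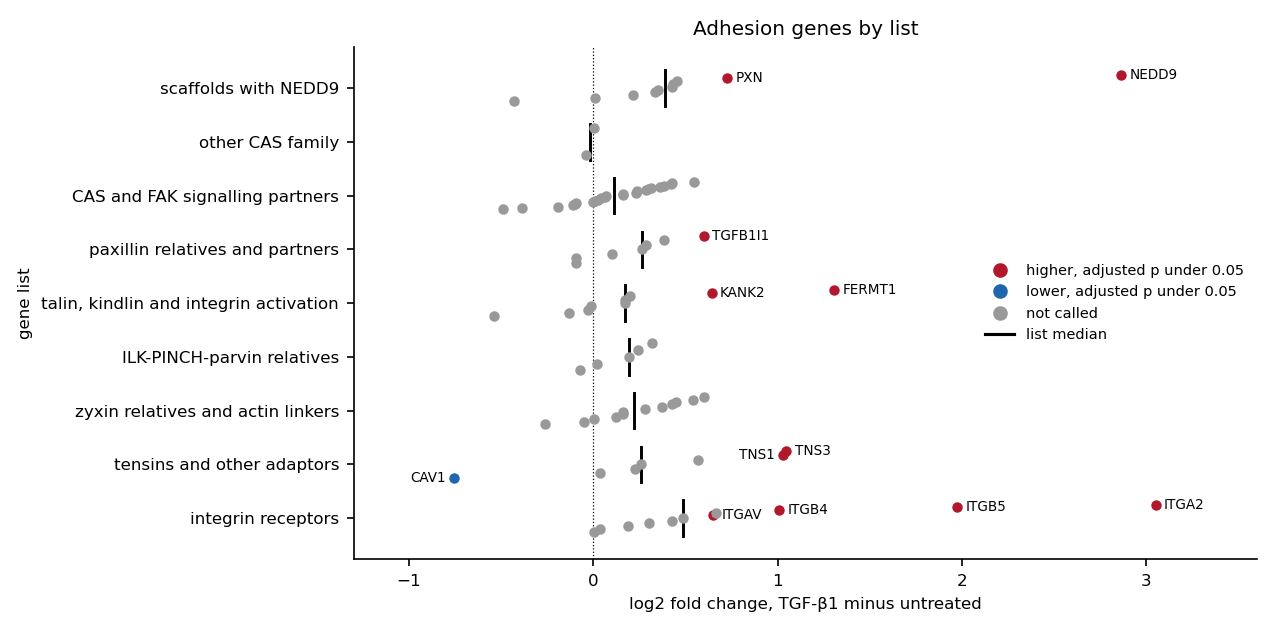
Log2 fold change (TGF-β1 minus untreated) of the 10 genes and of the 77 genes of 8 other adhesion lists, 1 point per gene, red where higher and blue where lower at adjusted p under 0.05, grey where not called, with a black bar at each list's median. NEDD9 at 2.86 stands beside ITGA2 at 3.05 and ITGB5 at 1.97, and the list medians run from -0.02 to 0.49.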

How the data were processed

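Total RNA of LSTGFBR2 cells was read on 4 1-colour arrays, 2 of untreated cells and 2 of cells given TGF-β1. The authors deposited log2 expression values (the range bears out that scale), made with RMA (background correction, quantile normalization and summarization per probe set), per the series' design text and the submitters' processing notes. The sources used here do not name the RMA software. Quantile normalization hides a shift shared by most transcripts.

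Probe sets were named from the platform annotation, 41097 with 1 symbol, 1801 with several and 11777 unnamed here, with symbols updated through RefSeq for 41043. A gene was read by its probe set of highest mean. TGF-β1 minus untreated was fitted by limma 3.58.1 (R 4.3.3; lmFit and eBayes, two-sided, no covariate or filter) over 19775 genes and, separately, over 54613 probe sets without 62 controls. A gene was called, and said to rise or fall, at a Benjamini-Hochberg adjusted p under 0.05. Intervals are limma's at 95%. Precision is limited by having 4 arrays. The gene fit was tested on simulated data, with noise drawn independently for each gene. For a fit of a reference gene minus all others, only the median difference was checked on these data, not the p-values. The fit with unshared pairs was not tested.

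The members, lists and tests were chosen with earlier results of these data known. Named genes were all members, TGFBR2, up to 4 called genes of each list with the largest change (the 2 largest where fewer than 2 were called) and the 5 genes closest to NEDD9. Marker levels are sums of anti-logged values. The planned search of protein sequences was not run, and the fit with unshared pairs and the shared LIMS1 probe sets were added after the data were seen. Alternatives were minimum mean levels, an intensity trend, other centrings, averaged probe sets, a replicate block and leaving out each array.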

Additional observations from a re-analysis of the deposited data

How the results depend on the processing

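NEDD9 rose and was called under all alternatives run at gene level. Of the 10 genes, 7 passed at an unadjusted p under 0.05 in either direction (16.7% of all genes did). They include NEDD9, whose rise was known, and LIMS1, which read lower by a dim probe set. In place of 2 called, there was 1 with a further 2-fold minimum and 1 with averaged probe sets. The PXN call was also lost with any 1 array left out. Of the 31 probe sets, 4 were called, and 0 to 2 with 1 array left out, which leaves 1 residual degree of freedom. Of the 77 other adhesion genes 10 were called, 6 with averaged probe sets, 2 to 3 with 1 array left out and 15 with a minimum mean log2 value of 7. NEDD9 minus BCAR1 was 2.63 to 3.08 with 1 array left out. Arrays of the same replicate number deviated together across genes (r = 0.364), but nothing in the labels pairs them. With the replicate block 2 of the 10 genes and 7 of the 77 were called, beside 561 of all 19775. Over probe sets 2 of the 31 were called with the block, and NEDD9 minus BCAR1 was 2.86. The calls lost with the block were those of TGFB1I1 (adjusted p = 0.0656), ITGB4 (0.0734), ITGAV (0.0591), the third NEDD9 probe set (0.0700) and the brighter PXN probe set over all probe sets (0.0946). Values near 0 changed sign with 1 array left out, over ranges of -0.13 to 0.15 for BCAR1, -0.15 to 0.067 for EFS, -0.055 to 0.059 for CASS4, -0.12 to 0.069 for the fourth NEDD9 probe set and -0.038 to 0.10 for the dimmest, and CASS4 was -0.037 with averaged probe sets. LIMS1 was at -0.43 by its own brightest probe set. The shared probe sets, which cannot be given to LIMS1 alone, gave 0.012 and 0.28. The adjusted p of TES was 0.0313 to 0.0485 and of FBLIM1 0.0425 to 0.0479 where they passed under other filters, centrings or the trend, and PTPN12 passed with a minimum of 7 (0.0460) and with housekeeping centring (0.0491). Without a detection call, changes of dim probe sets are uncertain in size.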
